A study of Homo sapiens with 6 samples.

Results

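The PHLDA family holds 3 genes, PHLDA1, PHLDA2 and PHLDA3, out of 17687 genes with a named probe set. The members were found by their gene symbol in the platform annotation, and the probe set standing for each gene was to be chosen by its mean level over all arrays. Each of the 3 genes had 1 probe set, so this measured value decided nothing. The family was put forward with the EGF response of these data known, and the values of its members are given on that footing.

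The proteins of this family are small and built around a pleckstrin homology-like domain, a fold that can bind phosphoinositide lipids of the cell membrane. PHLDA1, also called TDAG51, was first described in mouse T-cell hybridomas undergoing cell death, and its transcript belongs to published signatures of ERK pathway output. PHLDA2 is an imprinted gene that is expressed from the maternal copy and limits placental growth in the mouse. PHLDA3 is induced by p53 and restrains the kinase AKT by competing for the membrane lipids that AKT binds.

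The cells were A431, a human epidermoid carcinoma line with very high levels of the EGF receptor (EGFR) and a mutant p53, grown as 1 line with 10% serum and then starved for 24 h. The EGF plus gefitinib group received 100 ng/ml EGF and 10 µM of the EGFR kinase inhibitor gefitinib. The EGF group received 100 ng/ml EGF, and the control group received neither agent. Harvest was at 30 min per the labels. The sources used here do not give the order in which EGF and gefitinib were added, and no group had gefitinib alone. Each group held 2 arrays that the labels call biological replicates. The labels do not say whether the 2 arrays stand for separate cultures, and the p-values speak only for the spread between such arrays, possibly a technical one.

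Across the 6 arrays, 38.4% to 42.1% of the 21448 transcript probe sets lay above the background limit, set on each array at the 95th percentile of its negative controls. Arrays of a group correlated at 0.991 to 0.994, a description across probe sets that are not independent of each other. FOSL1, an AP-1 subunit, rose by 4.01 with EGF (limma, adjusted p = 0.000421), while EGR1, an immediate early factor, and EGFR differed by 0.10 and 0.04 (adjusted p = 0.894 and 0.916). EGR1 is known as one of the first and most short-lived transcripts to answer EGF, and FOSL1 as a later one. EGR1 was already high in control, with a mean of 11.69. With EGF plus gefitinib EGR1 differed from control by −2.02 (limma, adjusted p = 0.0291), and by −2.59 to −1.46 without any 1 array. Only 1 of these 6 fits kept the call, and the EGF plus gefitinib arrays themselves lay apart, at 10.23 and 9.10. The time that the labels give for the EGF rise remains uncertain. It was not tested, and the data could not settle it. With EGF plus gefitinib against EGF, EGFR was higher by 0.87 and EGR1 lower, at −2.12 (limma, adjusted p = 0.0125 and 0.0061), and the EGFR call was lost without EGF 1, EGF 2 or EGF plus gefitinib 2. All 9 measured markers listed for a squamous epithelial line, among them EGFR, KRT18, SFN and PERP, lay above the limit on all arrays. With EGF 2 of them were called higher and 0 lower (all probe sets: 6.61% higher, 5.3% lower). Against EGF, 3 were called higher and 2 lower with EGF plus gefitinib (all probe sets: 8.86% higher, 9.81% lower). Their summed linear levels were 293229 to 311584 with EGF plus gefitinib, 431254 to 448236 with EGF and 311063 to 313244 in control. Of the 7 leukocyte markers 0 lay above it on any array, with summed linear levels of 281 to 293 with EGF plus gefitinib, 274 to 289 with EGF and 287 to 303 in control. Of the 6 endothelial markers only CDH5 did, on 1 EGF plus gefitinib and 1 control array, and the list summed to 295 to 316 with EGF plus gefitinib, 112 to 129 with EGF and 212 to 264 in control. Of the 7 fibroblast markers LUM lay above it on all arrays and COL1A2 on both control arrays. The fibroblast list summed to 560 to 748 with EGF plus gefitinib, 501 to 622 with EGF and 1040 to 1114 in control. CDH5, LUM and DCN were called lower with EGF against control, DCN from within the negative-control range. CDH5 was also called higher with EGF plus gefitinib against EGF, with a fitted change of 2.38 to 2.75 without any 1 array. In that comparison 0 fibroblast and 0 leukocyte markers were called (all probe sets: 8.86% higher, 9.81% lower), and nothing is read from these counts. The call of LUM was lost without any 1 control or EGF array, and 0 fibroblast markers were called without EGF 2 or control 2. For these markers their part in the results below was not tested.

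PHLDA1 was high with EGF and remained high when gefitinib was present. Its value on the log2 scale was 13.18 and 12.54 on the EGF plus gefitinib arrays, 13.50 and 13.40 on the EGF arrays, and 10.86 and 10.61 on the control arrays. No array of a group reached into the range of another, and both treated groups stood well above the control arrays. The means were 12.86 ± 0.45 with EGF plus gefitinib, 13.45 ± 0.07 with EGF and 10.73 ± 0.18 in control (SD, n = 2 each). All 6 values were 3.16 or more above the background limit of their array.

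The promoter of PHLDA1 is shown because PHLDA1 is the member that was above control in both treated groups and the only 1 of 3 members matched in the RefSeq promoter table used (GRCh38.p14). The 250 bases before its start, at chr12:76031777-76032026 on the minus strand, are written 5′ to 3′ along the gene, with the matches named below in capitals.

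PHLDA1: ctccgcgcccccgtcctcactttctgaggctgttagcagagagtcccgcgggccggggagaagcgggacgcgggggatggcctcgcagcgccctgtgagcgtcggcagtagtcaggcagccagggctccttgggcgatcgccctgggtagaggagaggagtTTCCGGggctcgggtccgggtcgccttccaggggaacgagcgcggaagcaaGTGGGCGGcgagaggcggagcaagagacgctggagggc

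On both strands, 6 motifs were searched, the binding letters of factors downstream of growth factor signalling, chosen with their matches known. The ETS letters CCGGAA matched once, on the strand opposite the gene, 89 to 84 bases before the start, and are found in 14.5% of all 35116 promoters of this length. The EGR letters GTGGGCG matched once, 38 to 32 bases before the start, and are found in 8.53% of promoters. They overlap the single match of the SP letters GGGCGG, found in 42.6%. The AP-1 letters TGANTCA (6.57% of promoters), the CRE letters TGACGTCA (1.65%) and the CArG box of serum response factor (1.16%) had 0 matches in this window.

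PHLDA2 was high with EGF alone. It measured 7.92 and 7.85 on the EGF plus gefitinib arrays, 11.37 and 11.78 on the EGF arrays, and 8.14 and 7.85 on the control arrays. The EGF arrays stood apart, and the EGF plus gefitinib values lay within or at the edge of the control range. The means were 7.89 ± 0.04 with EGF plus gefitinib, 11.58 ± 0.29 with EGF and 8.0 ± 0.21 in control (SD, n = 2 each). The 4 low values were dim, at 0.27 and 0.56 above the background limit with EGF plus gefitinib and at 1.0 and 0.41 above it in control, so a difference between these groups in this low range would be hard to see.

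PHLDA3 lay between 8.52 and 9.49 on the 6 arrays, and the 2 EGF arrays were further apart than those of the other groups. It measured 9.22 and 9.49 on the EGF plus gefitinib arrays, 9.19 and 8.52 on the EGF arrays, and 8.93 and 9.10 on the control arrays. Both EGF plus gefitinib values were above all others by a small margin, and the EGF values spanned the control values. The means were 9.36 ± 0.19 with EGF plus gefitinib, 8.85 ± 0.47 with EGF and 9.01 ± 0.12 in control (SD, n = 2 each). All 6 values were 1.23 or more above the background limit.

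**Figure D1:**
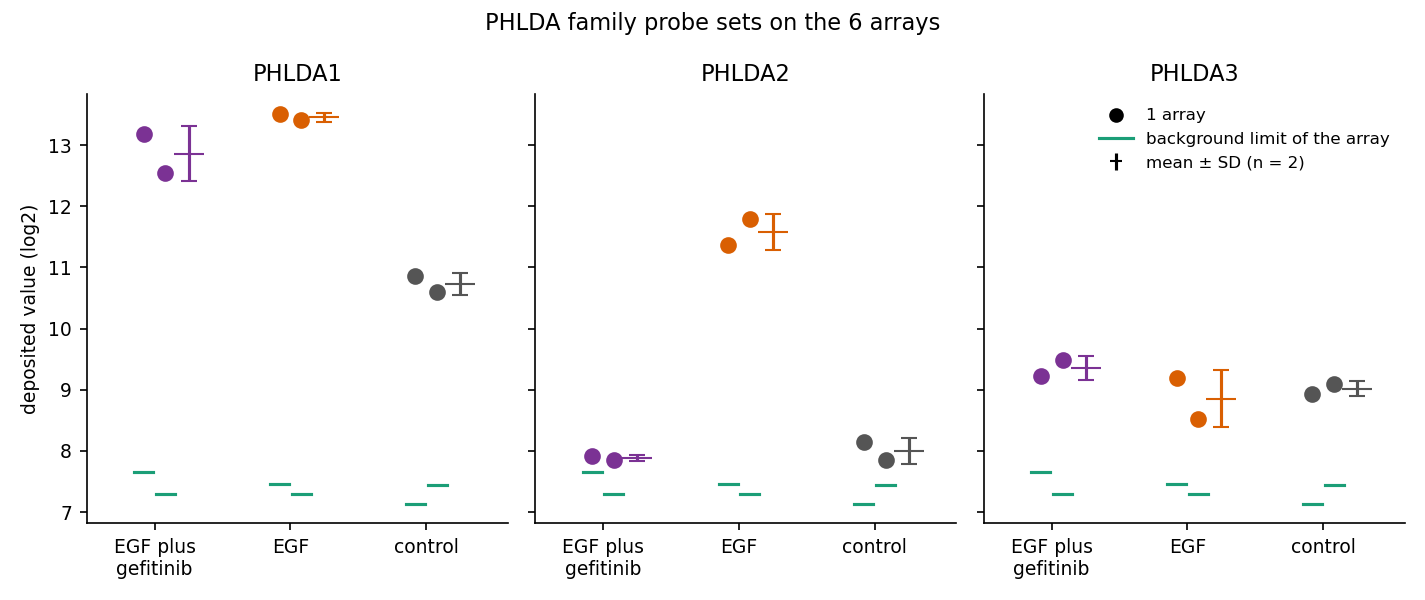
Deposited log2 values of PHLDA1, PHLDA2 and PHLDA3 (y axis) in the EGF plus gefitinib, EGF and control groups (x axis). Points are single arrays, bars are the mean ± SD of 2 arrays and short green lines are the background limit of each array; PHLDA1 is high in both treated groups, PHLDA2 in the EGF group alone and PHLDA3 lies between 8.52 and 9.49 throughout.

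The first comparison asked how EGF changed the family in starved cells. PHLDA2 rose 12.0-fold, by 3.58 ± 0.21 on the log2 scale (± SE, n = 2 arrays per group; limma, adjusted p = 0.000402). As RNA was taken from whole cultures, more cells with a transcript and more transcript per cell cannot be told apart. PHLDA1 rose 6.58-fold, by 2.72 ± 0.25 (limma, adjusted p = 0.00154). PHLDA3 differed by −0.16 ± 0.26, with a 95% interval of −0.76 to 0.44 (limma, adjusted p = 0.757). Thus 2 of 3 members were called higher at an adjusted p under 0.05, a call that 6.61% of all probe sets received, and 0 of 3 were called lower, against 5.3% of all probe sets. Since the family was proposed with this response known, nothing is read from that count. Among 1222 probe sets that were called higher with EGF and lay above the background limit on both EGF arrays, the rise of PHLDA2 was number 15 in size and that of PHLDA1 number 43. The changes of PHLDA1 and PHLDA2 stayed called without any 1 of the 6 arrays, at 2.59 to 2.85 for PHLDA1 and 3.38 to 3.79 for PHLDA2, while that of PHLDA3 ran from −0.49 to 0.17 and was called in none of these fits.

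With EGF present on both sides, the effect of gefitinib on the family was then compared. PHLDA2 fell 12.9-fold, by 3.69 ± 0.21 on the log2 scale (limma, adjusted p = 0.000243). PHLDA1 differed by −0.59 ± 0.25, with a 95% interval of −1.17 to −0.01 (limma, unadjusted p = 0.0459, adjusted p = 0.15). Both EGF plus gefitinib arrays were below both EGF arrays for PHLDA1, but the difference did not pass the threshold over all probe sets. It did pass when limma's prior variance was allowed to follow the mean level (adjusted p = 0.0191), and the difference was −0.28 without EGF plus gefitinib 2 and −0.91 without EGF plus gefitinib 1. PHLDA3 differed by 0.50 ± 0.26, with a 95% interval of −0.10 to 1.10 (limma, adjusted p = 0.235). The member called lower was 1 of 3, against 9.81% of all probe sets, and 0 of 3 were called higher, against 8.86%.

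The third comparison set EGF plus gefitinib against control, which shares its arrays with the comparisons above. PHLDA1 was 4.36-fold higher, by 2.12 ± 0.25 on the log2 scale (limma, adjusted p = 0.0123). PHLDA2 differed by −0.11 ± 0.21, with a 95% interval of −0.61 to 0.39 (limma, adjusted p = 0.815), and PHLDA3 by 0.34 ± 0.26, with a 95% interval of −0.26 to 0.94 (limma, adjusted p = 0.504). Here 1 of 3 members was called higher, against 2.19% of all probe sets, and 0 of 3 lower, against 1.7%. The call of PHLDA1 was lost without control 1 (2.25, adjusted p = 0.0813), without control 2 (2.0, adjusted p = 0.0923) and without EGF plus gefitinib 2 (2.44, adjusted p = 0.056). In these 3 fits limma called 0, 8 and 0 of all probe sets in this comparison.

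**Figure D2:**
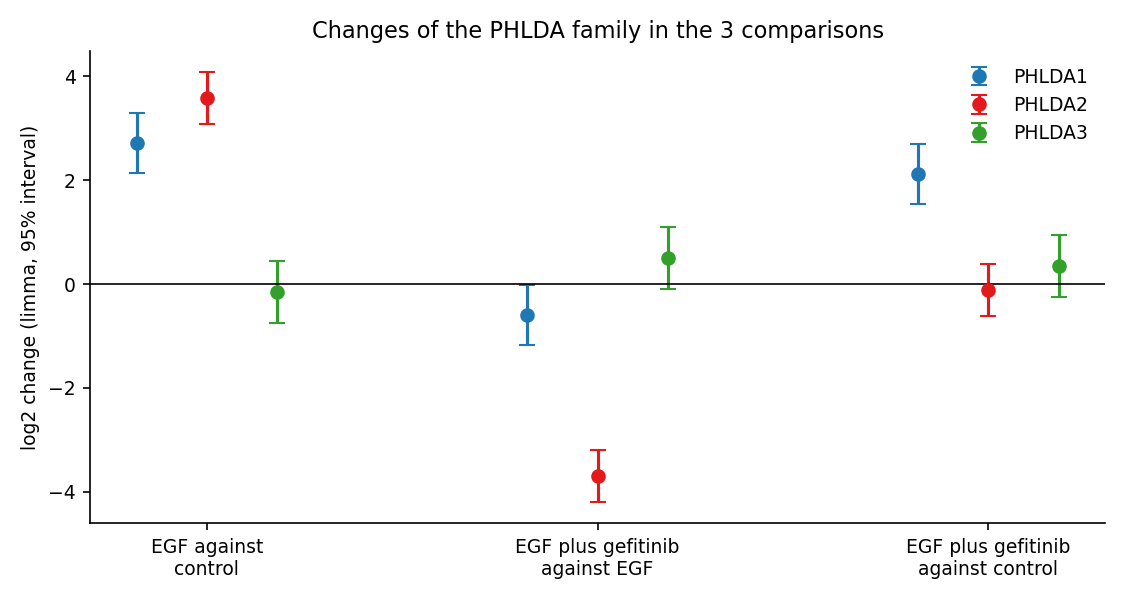
Log2 changes of the 3 members (y axis) in the 3 comparisons (x axis), from limma with 95% intervals (n = 2 arrays per group). PHLDA1 lies above 0 against control in both treated groups, PHLDA2 is 3.58 higher with EGF and 3.69 lower when gefitinib is added, and the intervals of PHLDA3 include 0 in each comparison.

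The members were then compared by the share of the EGF rise left with gefitinib, which is the change of EGF plus gefitinib against control divided by that of EGF against control, on the log2 scale. PHLDA1 kept 78.1% ± 8.27 of its rise (± delta-method SE, n = 2 arrays per group), with a Fieller 95% interval of 59.5% to 99.4%. PHLDA2 kept −3.13% ± 6.04, with an interval of −18.6% to 10.2%, a range that includes 0. PHLDA3 has no share, since it had no called rise. By this share, most of the rise was left in PHLDA1 and none was detectable in PHLDA2, which was close to the background limit where it was low. As no group had gefitinib alone, a kept EGF rise and a rise with gefitinib itself cannot be told apart.

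The shares of PHLDA1 and PHLDA2, the only pair that could be compared, differed by 81.3 ± 10.2 percentage points, with a 95% interval of 57.2 to 105.3 from limma's moderated variance. No p is given for this difference in shares, as the family was put forward with results known. This error takes the members as independent, although they were read on the same arrays. Within an array, the PHLDA1 value minus the PHLDA2 value, centred on the control mean, was 2.52 and 1.95 with EGF plus gefitinib, against −0.61 and −1.12 with EGF. The arrays of these groups did not overlap, and the mean difference was 3.10. An exact two-sided permutation test over 2 against 2 arrays gave p = 0.333, the smallest it can give, so nothing is read from it. Without any 1 array, the difference in shares ran from 70.4 to 92.1 percentage points, the share of PHLDA1 from 66.4% without EGF plus gefitinib 1 to 89.9% without EGF plus gefitinib 2, and that of PHLDA2 from −7.54% to 0.93%. On the linear scale, where the top of the range weighs more, PHLDA1 kept 62.0% and PHLDA2 −0.72%.

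Over the 1222 EGF-raised probe sets the median share left was −2.02%, with the middle of the distribution between −34.6% and 27.2% (quartiles). The share of PHLDA2 was near this median, and 48.9% of the probe sets had a share at or below it. A share at or above that of PHLDA1 was found for 94 of them, 7.69%. Among the 747 probe sets that EGF raised at least 2-fold, 48 were at or above PHLDA1, 6.43%. These are positions in a distribution and not a test. The probe sets were chosen by their EGF arrays, which also enter the divisor of the share. Some lay within the negative-control range in the other groups, where the floor limits the share, so the distribution is no neutral measure.

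**Figure D3:**
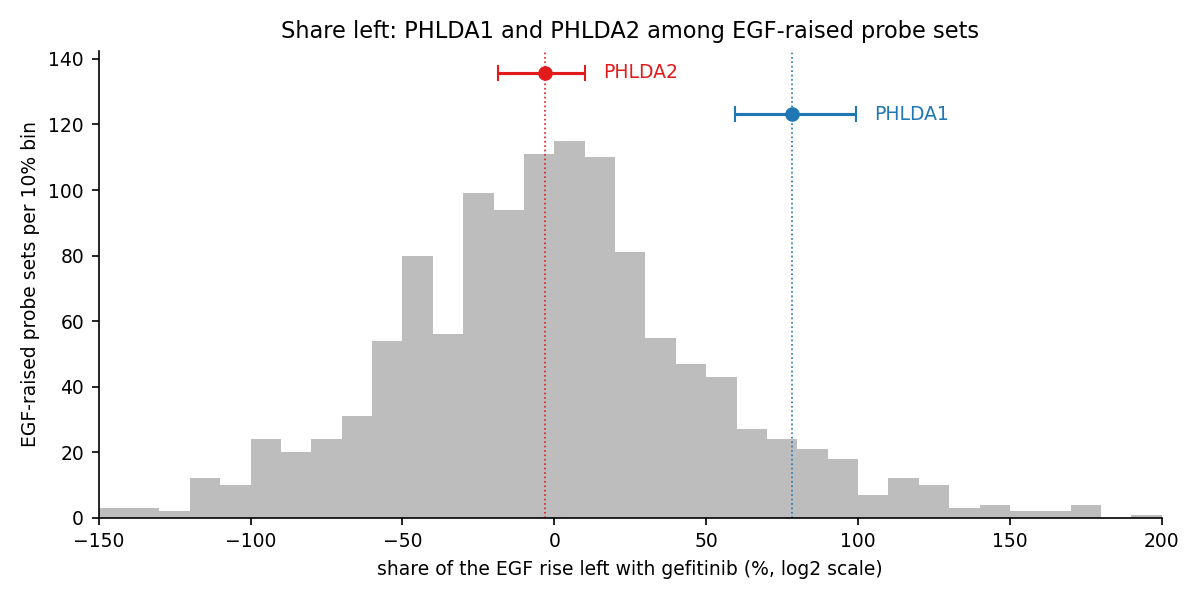
Share of the EGF rise left with gefitinib, in percent on the log2 scale (x axis), for 1222 EGF-raised probe sets in bins of 10% (y axis, number of probe sets), with 8 probe sets below −150% and 5 above 200% not drawn. Points with bars are PHLDA1 and PHLDA2 with their Fieller 95% intervals, placed above the bars for legibility; PHLDA2 lies near the middle of the distribution at −3.13% and PHLDA1 in its upper tail at 78.1%.

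PHLDA1 was set beside 9 other transcripts of a published MAPK activity signature that holds it. With EGF, 4 of 9 were called higher and 1 lower (all probe sets: 6.61% higher, 5.3% lower), with a median change of 0.77 against −0.03 over all probe sets. DUSP6, the ERK phosphatase, rose by 4.04 ± 0.20 (limma, adjusted p = 0.000208), DUSP4, another MAP kinase phosphatase, by 2.92 ± 0.25 (adjusted p = 0.00122) and EPHA2, an ephrin receptor, by 1.85 ± 0.18 (adjusted p = 0.00176). With EGF plus gefitinib these 3 genes were still above control, by 2.61 for DUSP6, 2.01 for DUSP4 and 1.24 for EPHA2 (limma, adjusted p = 0.00618, 0.0144 and 0.0182). Unlike PHLDA1, DUSP6 and DUSP4 were called lower with EGF plus gefitinib than with EGF, at −1.43 and −0.91 (limma, adjusted p = 0.00352 and 0.0423). The DUSP4 call held in 2 of the 6 fits without 1 array. EPHA2 differed there by −0.61 and was not called (limma, adjusted p = 0.0534). The shares left were 64.5% for DUSP6, 68.7% for DUSP4 and 67.2% for EPHA2, beside 78.1% for PHLDA1, and the differences between these genes were not tested.

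Other transcripts of the signature moved in other ways. The Sprouty gene SPRY4, a feedback inhibitor, lay within the negative-control range on all arrays (fitted EGF change 1.70), as did SPRY2, yet SPRY4 is among the 4 called higher with EGF and the 3 called lower with EGF plus gefitinib against EGF. The receptor EPHA4 was lower with EGF (−1.83 ± 0.25, limma, adjusted p = 0.00589), and the ETS factor ETV5 was at least 2.61-fold higher with EGF plus gefitinib than with EGF (limma, adjusted p = 0.00262), with its EGF and control values within the negative-control range. The cyclin gene CCND1, above the limit on all arrays, differed from control by 0.55 with EGF and by 0.10 with EGF plus gefitinib. Neither change was called (limma, adjusted p = 0.0816 and 0.797). In EGF plus gefitinib against EGF, 3 of 9 were called lower and 2 higher (all probe sets: 8.86% higher, 9.81% lower), with a median of −0.61 against 0.05 over all probe sets. Against control, 4 of 9 were called higher with EGF plus gefitinib and 0 lower (all probe sets: 2.19% higher, 1.7% lower), with a median of 0.38 against 0.01. That count was 0 without control 1, without control 2 or without EGF plus gefitinib 2, and 1, DUSP6, without EGF plus gefitinib 1.

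**Figure D4:**
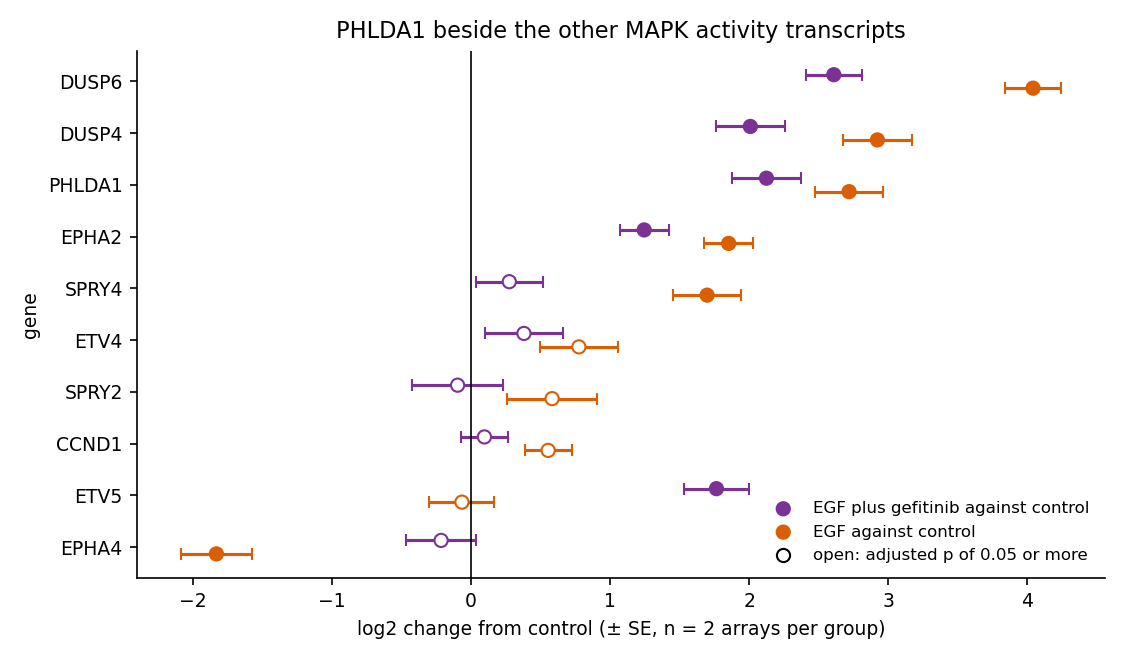
Log2 change from control (x axis, ± SE from limma, n = 2 arrays per group) of PHLDA1 and 9 other MAPK activity transcripts (y axis) with EGF plus gefitinib and with EGF; open points have an adjusted p of 0.05 or more. PHLDA1, DUSP4, DUSP6 and EPHA2 lie above 0 in both, and SPRY2 and SPRY4 were within the negative-control range.

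For PHLDA2, the measured genes of the imprinted region around it were counted. Of 12, only 3 lay above the background limit on all arrays, the histone chaperone gene NAP1L4, the tetraspanin gene CD81 and the tRNA synthetase gene CARS1. With EGF 1 of 12 was called higher and 0 lower, a share near that of all probe sets (6.61% higher, 5.3% lower), with a median change of −0.08. It was TSSC4, at least 1.13-fold higher (limma, adjusted p = 0.0382), a call lost without control 1, control 2, EGF 1 or EGF 2. TSSC4 did not pass the background limit on either control array, and of the EGF arrays only EGF 1 passed it. NAP1L4 differed by −0.36 ± 0.18 (adjusted p = 0.26) and CD81 by −0.07 ± 0.18 (adjusted p = 0.842), beside the rise of 3.58 of PHLDA2. The imprinted growth inhibitor CDKN1C lay within the negative-control range on all arrays. With EGF plus gefitinib against EGF, CARS1 was higher by 0.84 ± 0.17 (limma, adjusted p = 0.0167) and TSSC4 lower (adjusted p = 0.015), 1 of 12 in each direction, near the share of all probe sets (8.86% higher, 9.81% lower), with a median of 0.12. Without EGF plus gefitinib 2, EGF 1 or EGF 2, 0 of 12 were called higher, and 2 were without EGF plus gefitinib 1. TSSC4 was not called lower without EGF 1 or EGF plus gefitinib 1. Against control, 0 of 12 were called with EGF plus gefitinib by limma (all probe sets: 2.19% higher, 1.7% lower), and the median was 0.00.

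For PHLDA3, 21 other p53 targets were measured. With EGF 3 of 21 were called higher and 5 lower (all probe sets: 6.61% higher, 5.3% lower), with a median change of −0.06. The cell cycle inhibitor CDKN1A rose by 2.19 ± 0.27 (limma, adjusted p = 0.00416) and the nuclease gene AEN at least 7.63-fold (adjusted p = 0.000593), while TP53INP1, a stress-induced p53 partner, fell at least 1.73-fold (adjusted p = 0.00233) and CCNG1, a cyclin, fell 2.11-fold (adjusted p = 0.0117), a call lost without any 1 control or EGF array. PHLDA3, at −0.16, was near the median of this list. Without 1 array in turn, 2 to 3 were called higher and 1 to 3 lower, with 1 lower without control 1 or EGF 1.

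With EGF plus gefitinib against EGF, 9 of the 21 p53 targets were called higher and 3 lower (all probe sets: 8.86% higher, 9.81% lower), with a median of −0.00. TP53INP1 was at least 2.25-fold higher and CCNG1 higher by 1.51 ± 0.18 (limma, adjusted p = 0.000845 and 0.00201), and AEN was at least 6.73-fold lower (adjusted p = 0.000258). Leaving out any 1 array lowered the number of calls over all probe sets too, so a lower list count is not particular to the list. Without 1 array in turn, 5 to 7 were called higher and 2 lower, with 5 higher without EGF 1 or EGF 2. Against control, 3 of 21 were called higher with EGF plus gefitinib and 0 lower (all probe sets: 2.19% higher, 1.7% lower), with a median of 0.38. The higher count was 0 without control 1, control 2, EGF plus gefitinib 1 or EGF plus gefitinib 2, and 1 without EGF 1 or EGF 2. CDKN1A was among the 3, at 1.49 ± 0.27 (adjusted p = 0.0352), and its call was lost in each of these fits.

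PHLDA3 acts on AKT at the membrane, so 18 genes of the PI3K and AKT pathway were counted as well. With EGF 2 of 18 were called higher and 4 lower (all probe sets: 6.61% higher, 5.3% lower), with a median of −0.02. TRIB3, a pseudokinase that binds AKT, rose by 1.55 ± 0.21 (limma, adjusted p = 0.00552) and PIK3R1, a regulatory subunit of PI3K, fell by 1.97 ± 0.20 (adjusted p = 0.002). The share of the rise left with gefitinib was 141% for TRIB3 and 155% for RICTOR, the other gene called higher. PIK3IP1, a PI3K inhibitor above the background limit on 1 control array alone, was also called lower (adjusted p = 0.00647), though not without EGF 1. IRS2, an insulin receptor adaptor, was called lower with EGF, where it lay within the negative-control range (adjusted p = 0.00611), though not without EGF 1, and was at least 3.50-fold higher with EGF plus gefitinib than with EGF (adjusted p = 0.000339). In that comparison 5 of 18 were called higher and 3 lower (all probe sets: 8.86% higher, 9.81% lower), with a median of 0.13. Against control 3 of 18 were called higher and 1 lower (all probe sets: 2.19% higher, 1.7% lower), with a median of −0.05. Without 1 array in turn, the EGF counts were 1 to 2 higher and 1 to 5 lower, those against EGF 3 to 5 higher and 1 to 3 lower, and those against control 0 to 2 higher and 0 lower. With EGF 1 was called lower without EGF 1, and 1 was called higher without EGF 1, EGF 2 or control 2. Against EGF, 1 was called lower without EGF 2, and 3 higher without EGF 1 or EGF 2. The lowest against control were 0 higher without control 1, control 2 or EGF plus gefitinib 2.

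Because PHLDA1 was first described in cell death, 12 stress and death regulators were counted too. With EGF 5 of 12 were called higher and 1 lower (all probe sets: 6.61% higher, 5.3% lower), with a median of 0.53. TNFRSF10A, a death receptor, rose by 3.03 ± 0.23 (limma, adjusted p = 0.00089), TRIB1, a pseudokinase, by 2.59 ± 0.25 (adjusted p = 0.00181) and IER3, an early response gene, by 2.40 ± 0.21 (adjusted p = 0.0014). The shares left with gefitinib were 17.1% for TNFRSF10A, 28.8% for TRIB1 and 64.0% for IER3. For the other genes called higher they were 77.4% for MCL1 and 165.9% for DDIT4, the latter above that of PHLDA1. With EGF plus gefitinib against EGF 6 of 12 were called higher and 4 lower (all probe sets: 8.86% higher, 9.81% lower), with a median of 0.26, and the stress factor ATF3 was at least 1.6-fold higher (adjusted p = 0.00123). Against control 6 of 12 were called higher and 0 lower (all probe sets: 2.19% higher, 1.7% lower), with a median of 0.90. Without 1 control or EGF array in turn the EGF count was 3 higher and 0 lower. The count against EGF without 1 array was 3 to 5 higher and 2 to 4 lower, with 3 higher without EGF plus gefitinib 1 and 2 lower without EGF 1 or EGF 2. The count against control was 0 without control 1, control 2 or EGF plus gefitinib 2, and 2 without EGF plus gefitinib 1.

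Of the PHLDB genes, a second family named for a pleckstrin homology-like domain, 2 were measured and 0 were called by limma in any comparison. Over all probe sets 6.61% were called higher and 5.3% lower with EGF, 8.86% and 9.81% with EGF plus gefitinib against EGF. With EGF plus gefitinib against control these were 2.19% and 1.7%, so nothing is read from a count of 0 among 2. PHLDB2 differed by 0.38 ± 0.17 with EGF (adjusted p = 0.202), and PHLDB3 lay within the negative-control range on all arrays.

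The genes closest in pattern to each member were taken by the root mean square difference over the 6 arrays, after each gene was centred on its control mean, among 3477 genes called in at least 1 comparison and above the background limit on at least 2 arrays. Being chosen by their values on the same arrays, these genes follow the member by construction, and nothing is read from their likeness. For PHLDA1 these were the zinc finger factor KLF6 (0.36), the phosphatase DUSP4 (0.37), the early response gene IER3 (0.42), the NF-kB inhibitor TNFAIP3 (0.44) and the growth factor VEGFA (0.46). Their EGF changes ran from 2.01 for VEGFA to 3.14 for TNFAIP3, and their changes with EGF plus gefitinib against control from 1.54 for IER3 to 2.56 for TNFAIP3. The changes of all 5 from control were called in both treated groups. With EGF plus gefitinib these calls were lost without control 1 or EGF plus gefitinib 2 for all 5, and without control 2 for all but TNFAIP3. Without EGF plus gefitinib 1 those of DUSP4 and IER3 were lost.

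For PHLDA2 the closest were the adhesion molecule CEACAM1 (0.28), the chemokine CXCL11 (0.33), the AP-1 subunit FOSL1 (0.34), the activin subunit INHBA (0.35) and the GTPase GBP5 (0.35). CEACAM1 rose by 3.34 with EGF and was 0.00 from control with EGF plus gefitinib, and FOSL1 rose by 4.01 and was 0.02 from control. CXCL11, INHBA and GBP5 lay within the negative-control range except with EGF, where they were at least 6.65-fold, 5.15-fold and 1.84-fold above control. For PHLDA3, which was not called itself, the closest were the tRNA synthetase gene IARS1 (0.16), RIDA (0.19), RSRC2 (0.19), the lysosomal enzyme gene MANBA (0.19) and the phosphatase gene PPM1D (0.20), with EGF changes of −0.46 for MANBA to −0.16 for RSRC2. Each of these was higher by 0.64 to 0.89 with EGF plus gefitinib than with EGF, beside 0.50 for PHLDA3. These calls were lost without any 1 of the 6 arrays, except that of MANBA, which held without control 1 or control 2.

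**Figure D5:**
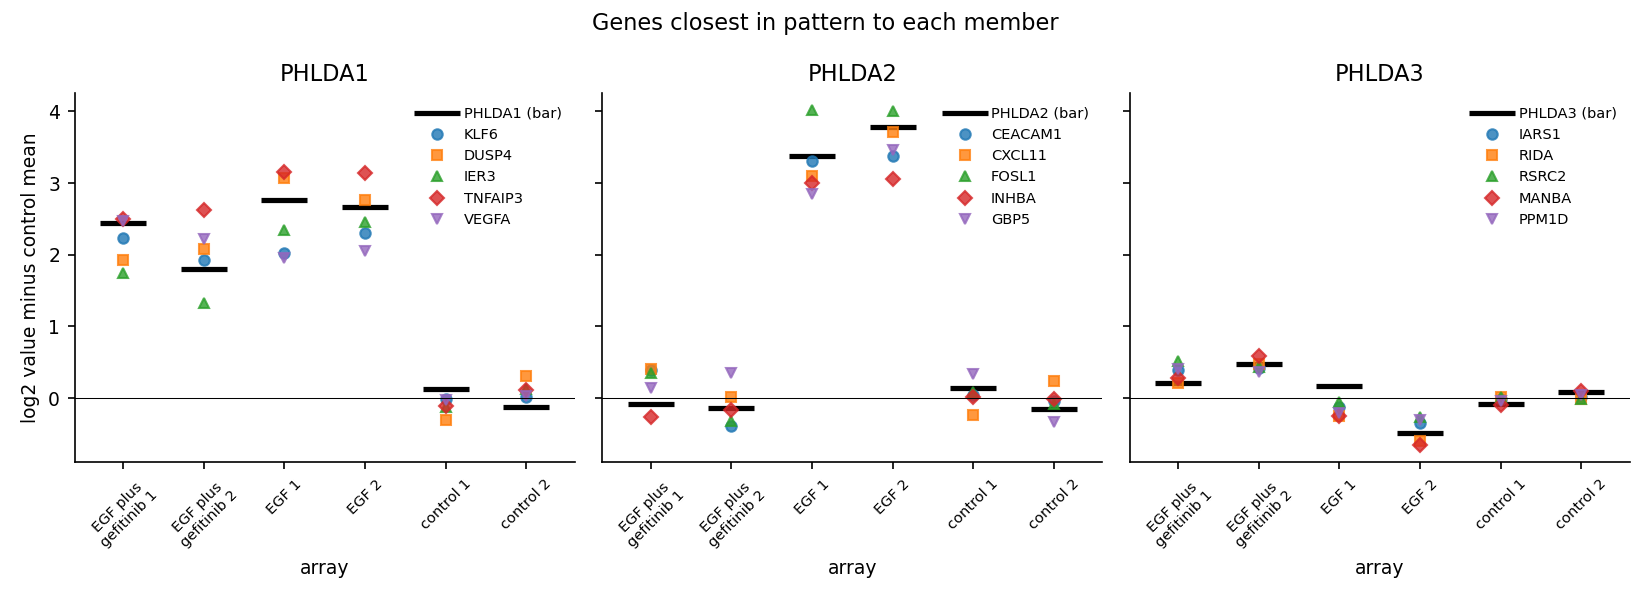
Log2 values minus the control mean (y axis) on each of the 6 arrays (x axis) for PHLDA1, PHLDA2 and PHLDA3 (black bars) and the 5 genes closest to each in pattern (coloured marks). The genes beside PHLDA1 are high on all 4 treated arrays, those beside PHLDA2 on the 2 EGF arrays, and those beside PHLDA3 stay within 1 log2 unit of the control mean.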

How the data were processed

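For the 6 arrays, the authors deposited 1 table of log2 probe set values, with Transcriptome Analysis Console as the program per the submitters' processing notes. The sources used here give neither its version nor its background correction and normalization, and the log2 scale was inferred from the range of the values. The table holds 24351 probe sets. After removal of 2903 controls, all 21448 others entered the tests whatever their level, and 17709 of them had 1 gene symbol.

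The 3 group means were fitted together in limma 3.58.1 (lmFit, eBayes; R 4.3.3), with 3 residual degrees of freedom and 4.22 more from the prior. Two-sided p-values were adjusted over all 21448 probe sets (Benjamini-Hochberg). Changes are log2 differences of group means. A probe set at or below the background limit on both arrays of the dimmer group has only a bound, written "at least", in which the limit stands for that group. The number of arrays limits the precision.

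Members, lists, motifs and tests were chosen with earlier results of these data known. Named genes were the members, EGFR, EGR1, FOSL1 and DUSP6, up to 4 genes per list with the largest moderated statistic, and the 5 genes closest in pattern to each member. CD81, COL1A2, CCND1, SPRY2, SPRY4, EPHA4, MCL1, DDIT4 and RICTOR were named after their values were seen. The fit and the share were also run on simulated data with independent noise and no background floor. That run cannot speak for shares of genes near the background limit, such as PHLDA2. Deviations of same-numbered arrays correlated at −0.04 to 0.02 over all probe sets. The labels do not say whether the numbers pair samples, and this correlation cannot exclude it.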

Additional observations from a re-analysis of the deposited data

How the results depend on the processing

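The limma fit was repeated with the replicate number as a block, after quantile normalization, after median centring, on probe sets above the background limit on at least 2 arrays, with a variance trend, on the 4 arrays compared and without each array. Leaving out an array of the group not compared repeats the fit on the 4 arrays, so these settings are not all distinct. Changes not called in the main fit, all those of PHLDA3 among them, are counted too. Of 108 changes of members under these settings, 104 stayed on their side of the threshold, 3 lost the call (PHLDA1 with EGF plus gefitinib against control, given above) and 1 gained it (PHLDA1 against EGF with a variance trend). The difference in shares between PHLDA1 and PHLDA2 kept its direction in the 11 settings run for it, at 62.8 percentage points on the linear scale and 63.4 after the background limit was subtracted there. The share of PHLDA1 was then 62.0% and 61.9%, and the shares without 1 array ran from 66.4% to 89.9%. From arrays of the same number (replicate block) PHLDA1 kept 87.7% and 69.1% and PHLDA2 −7.06% and 0.10%. No gene of the family had another probe set to try.

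Counts over all probe sets moved more. They were lower without any 1 array in each comparison, so a drop in a list count given above is not particular to that list. For EGF against control, 2554 were called, against 3945 above the background limit, 4237 with a trend and 726 to 2506 without 1 array. For EGF plus gefitinib against control, 834 were called, against 2538 above the limit, 2770 with a trend, 333 with the replicate block, 247 on the 4 arrays and 0 to 247 without 1 array, with 0 without control 1 or EGF plus gefitinib 2. With all arrays 4457 had an unadjusted p under 0.05 there. For EGF plus gefitinib against EGF, 4005 were called, against 4896 above the limit, 5466 with a trend and 1889 to 3406 without 1 array. The causes were not tested. The replicate block changed no call of a member.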
